A study of Drosophila pseudoobscura with 29 samples.

Results

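The gene promoters on XR, the right arm of the X chromosome of the fly Drosophila pseudoobscura, were followed through embryonic development. They were chosen as all transcription start site clusters (TSCs, sets of start sites close enough to count as a promoter) that lie on an XR scaffold and that the authors assigned to a FlyBase gene. This gave 3472 promoters of 1981 genes out of 26066 TSCs in the series, and out of 18173 TSCs assigned to a gene. A further 10952 gene promoters lie on the autosomes 2, 3 and 4, and 3204 lie on XL, the other arm of the X. The series holds 29 libraries, 1 for each 1-hour window from 0 to 29 h after egg laying, made from whole embryos of the wild-type reference genome strain collected in population cages. The labels give no sex for the embryos, and no window was repeated, so a difference between single windows has no replicate check. The 27-28 h library held only 1011 reads and was left out, which leaves 28 libraries of 723775 to 11862896 reads.

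XR is a young X chromosome arm. It is homologous to the left arm of the third chromosome of Drosophila melanogaster, an autosome there, and became part of the X in the lineage leading to this species, so that males carry a single copy and its genes came under dosage compensation, the doubling of transcription from the male X. Embryos begin with RNA loaded by the mother and later switch to their own transcription, so promoter signal in the first hours is mostly of maternal origin. RAMPAGE sequences cDNAs that are complete at their 5′ end, so each read marks a start site, and the width of a TSC shows whether initiation is focused on a few bases or dispersed over many. Focused promoters are commonly those of regulated and tissue-specific genes, and dispersed promoters those of broadly used genes. In RNA from whole embryos, more cells that use a promoter and more RNA per cell cannot be told apart.

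The XR promoters lie on 4 scaffolds of the FlyBase r2.9 assembly. XR_group6 carries 1805 promoters of 1023 genes over 13.2 Mb, XR_group8 carries 1350 of 782 genes over 9.15 Mb, XR_group3a carries 222 and XR_group5 carries 95. The plus strand holds 1667 of them and the minus strand 1805. Of the 1981 genes, 1186 had a single promoter, 459 had 2 and 336 had 3 or more, with at most 11 for a gene. Some intervals are listed under more than 1 gene with identical values: 99 XR promoters share 49 intervals, so the 3472 promoters are 3422 separate intervals. The files pair the gene identifiers with no names, so promoters are described here by position (1-based), and no role is given to their genes. All 3472 were detected in at least 1 library, and 2160 of them (62.2%) reached 10 RPM (reads per 1000000 TSC reads) in at least 1 window, against 60.4% of autosomal and 58.3% of XL gene promoters. The mean level over the 28 libraries had a median of 5.31 RPM on XR, against 4.85 RPM on autosomes and 4.44 RPM on XL. A mean of at least 1000 RPM was reached by 25 XR promoters (0.720%), against 72 autosomal promoters (0.657%) and 9 on XL (0.281%).

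Most of the measured XR promoters changed with time, at a share close to that of promoters elsewhere. A smooth course in time was fitted to log2(RPM + 1) of every TSC that reached 1 RPM, and its F-test (limma, Benjamini-Hochberg adjusted over all TSCs, threshold 0.05) called 2864 of the 3416 XR promoters that passed this filter (83.8%). The same test called 79.1% of all TSCs, 83.3% of autosomal and 81.9% of XL gene promoters, so the XR share lies near the background. Comparing the fitted values of the last and the first window, 1407 XR promoters were higher at the end and 1457 lower, which is 41.2% and 42.7% of those tested, against 40.9% and 42.4% on autosomes and 36.7% and 45.2% on XL (41.5% and 37.6% of all TSCs). The F-test calls any change over time, and the sign of this fitted difference was not itself tested. The median fitted change was -0.06 (log2 scale) on XR and on autosomes, and -0.20 on XL. The direction of the XR majority depended on the method, since 1451 were higher and 1397 lower by the quasi-likelihood test of edgeR on recovered reads, and 1431 higher and 1385 lower with a pseudocount of 0.1 RPM.

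The courses at both extremes were steep. The largest fitted rise belonged to FBgn0072045_01, a promoter of 37 bp at 1987098 to 1987134 on the minus strand of XR_group8. Its lowest level was 0 RPM, its median 45.8 RPM and its highest 11088 RPM at 21-22 h. It had a single read at 0-1 h (0.0843 RPM), reached 2255 RPM at 19-20 h and was still at 3516 RPM at 28-29 h. The fitted change was 12.61 ± 1.66 (SE) on the log2(RPM + 1) scale, with an adjusted p of 3.5e-13 (limma). It is the difference between the ends of the fitted course, and was larger here than that between the observed end levels. The next largest rise, 12.33 ± 1.40 (SE, limma adjusted p = 8.7e-17), was that of FBgn0245250_01, a wider promoter of 278 bp at 9540711 to 9540988 on the plus strand of XR_group6. It had 0.590 RPM at 0-1 h, a median of 61.4 RPM and 17410 RPM at 22-23 h, and its mean of 3392 RPM was the highest of any XR promoter. Both lay at or under 1 RPM in the first 6 windows, and both gained most of their signal after 18 h.

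The 2 largest falls were those of promoters with their highest level in the first window. FBgn0245357_02, 94 bp at 12878484 to 12878577 on the plus strand of XR_group6, had 403 RPM at 0-1 h, 336 RPM at 1-2 h and 250 RPM at 2-3 h, then 14.5 RPM at 3-4 h and 3.01 RPM at 4-5 h. From there it never passed 7.23 RPM, and its fitted change was -7.82 ± 0.90 (SE, limma adjusted p = 1e-11). FBgn0249965_02, 55 bp at 5578870 to 5578924 on XR_group8, had the same shape, with 528 RPM at 0-1 h, 379 RPM at 2-3 h and 26.2 RPM at 3-4 h (change -7.63 ± 0.73, SE, limma adjusted p = 7e-15). The drop thus fell between the third and the fourth window for both. At 28-29 h each had 3 reads (3.38 RPM), so the fold between the ends, 119 for the first and 156 for the second, rests on few reads. For both promoters the fitted fall was larger than the difference between the observed end levels on the log2(RPM + 1) scale. The other 6 promoters of largest fall had first-window levels from 35.7 to 422 RPM, and 5 of these 6 peaked at 0-1 h. They include 1 interval counted for 2 genes, at 5576064 to 5576136 on XR_group8.

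**Figure D1:**
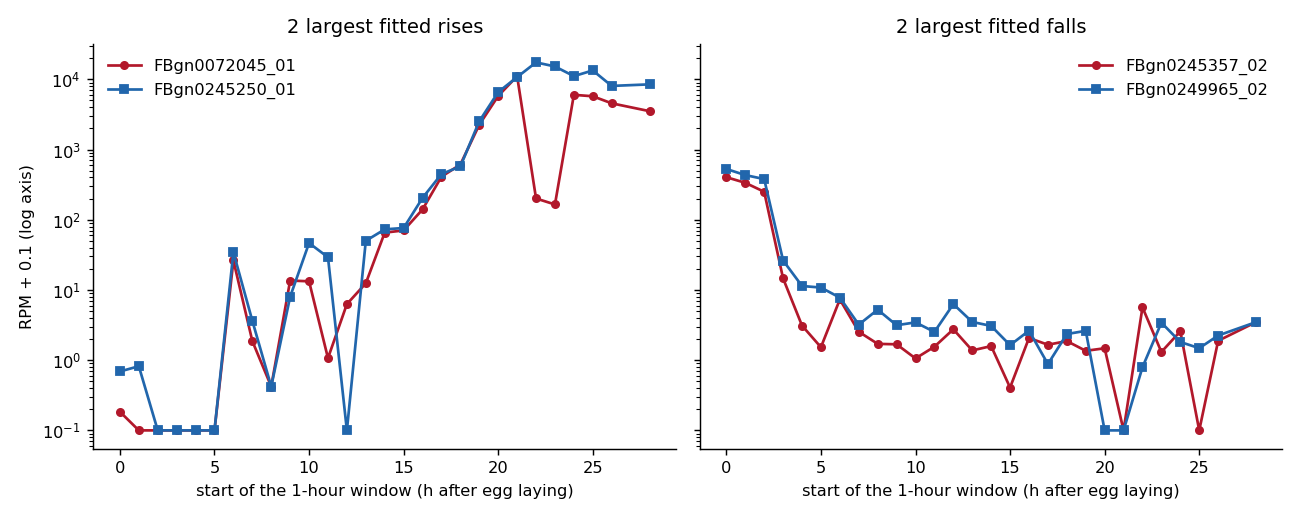
Level of the 2 XR promoters with the largest fitted rise (left) and the 2 with the largest fitted fall (right) in each of 28 windows, 1 library each, as RPM plus 0.1 on a log axis against the start hour. The rising promoters reach 2255 and 2528 RPM at 19-20 h, and 1 of them drops to 201 and 165 RPM at 22-23 h and 23-24 h. The falling promoters have 250 and 379 RPM at 2-3 h and 14.5 and 26.2 RPM at 3-4 h.

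Promoters of high mean level took several courses. The second highest mean, 3214 RPM, was that of a promoter of 170 bp at 7846552 on XR_group6 with a transient course, with a lowest level of 25.0 RPM, a median of 899 RPM and 13413 RPM at 13-14 h. The third, 153 bp at 10182461 on XR_group6, had a mean of 3002 RPM and peaked at 8210 RPM at 7-8 h. The fourth, 134 bp at 11786642 on XR_group6, stayed within 783 and 5899 RPM in every window, with a mean of 2946 RPM. The fifth, 45 bp at 6171899 on XR_group6, had a mean of 2242 RPM, a first-window level of 1.18 RPM and 14975 RPM at 21-22 h. These 5 promoters thus peaked early, in the middle and late.

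The window of highest level was compared over the 2160 XR promoters that reached 10 RPM. The median peak window began at 10 h on XR (interquartile range 2 to 20 h), against 8 h on autosomes (3 to 19 h) and 7 h on XL (2 to 18 h). Of the XR promoters, 1073 peaked before 10 h, 519 between 10 and 20 h and 568 at 20 h or later. The late share was 26.3% (95% Wilson interval 24.5 to 28.2%) on XR, 24.5% on autosomes and 21.2% on XL, and the early share was 49.7% on XR, 52.6% on autosomes and 56.4% on XL. These intervals treat promoters as independent, which neighbouring promoters are not, and the difference between the arms was not tested. The largest single groups were the 207 XR promoters that peaked at 1-2 h, the 199 at 0-1 h, the 168 at 2-3 h and the 139 at 3-4 h. The largest group after 4 h was that at 22-23 h with 128. Peak windows were filled unevenly from library to library: 17 XR promoters peaked at 6-7 h between 99 at 5-6 h and 84 at 7-8 h, and the same dip occurred on autosomes and XL. With each course averaged over 3 windows, 63 XR promoters peaked at 6-7 h, and the late share was 24.6% on XR against 23.8% on autosomes.

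**Figure D2:**
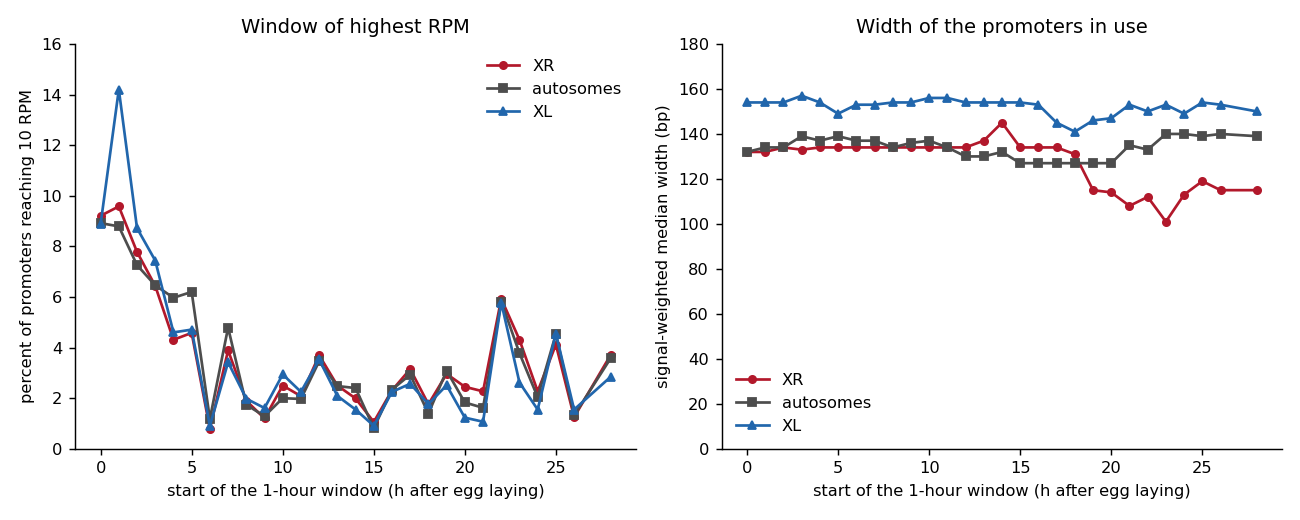
Left, percent of the gene promoters with a maximum of at least 10 RPM that had their highest level in each window, for 2160 on XR, 6612 on autosomes and 1869 on XL. Right, the width (bp) at which 50% of the promoter signal of a window lies in narrower promoters, for XR, autosomes and XL. The peak windows of the 3 sets differ most at 1-2 h, with 14.2% on XL, 9.58% on XR and 8.79% on autosomes. The width on XR drops to between 101 and 119 bp from 20 h on.

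Late courses on XR held their level for fewer windows than early and middle ones, as on autosomes and XL. Courses that peak near the start or the end of the series are cut short by it, and how much this lowers their counts was not tested. An XR promoter that peaked at 20 h or later held at least 50% of its peak level in a median of 4 windows (interquartile range 3 to 7), against 7 windows for those peaking early and 9 for those peaking in the middle. On autosomes the late, early and middle medians were 5, 7 and 8 windows, and on XL 5, 7 and 9. Late promoters that were developmentally regulated, a class defined below, had a median of 4 windows on XR, on autosomes and on XL. In 286 of the 568 late XR promoters (50.4%) not a single read was found at 0-1 h, the deepest library, where 3 reads are 0.253 RPM, against 40.2% of late autosomal and 39.9% of late XL promoters. The peak level of late XR promoters had a median of 48.2 RPM and an upper quartile of 228 RPM. On autosomes these were 45.6 and 139 RPM, so the late XR group had the higher upper quartile.

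A promoter was called developmentally regulated if it reached 10 RPM and drew 60% or more of its RPM, summed over the series, from 8 windows in a row. This definition follows that of the study. They made up 786 of the 2160 XR promoters (36.4%, 95% Wilson interval 34.4 to 38.4%), against 35.8% on autosomes and 29.96% on XL. Within this class the late phase dominated on XR: 405 of the 786 (51.5%) peaked at 20 h or later, against 43.2% on autosomes and 40.7% on XL, and 184 (23.4%) peaked early, against 31.1% and 30.9%. Housekeeping promoters, with a maximum of at least 10 RPM that stayed under 5 times the minimum, were 194 on XR (8.98%), against 9.06% on autosomes and 8.51% on XL. The 4 regulated promoters of highest peak in the early phase reached 1988 to 3808 RPM between 2 and 6 h. In the middle phase the 4 highest reached 3056 to 13413 RPM, and in the late phase 13247 to 17410 RPM. Of these last 4, 3 lay in the pair of stretches described further on.

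At the level of the whole arm, XR gained weight in the second part of embryogenesis. XR promoters gave 16.7% of all gene promoter signal at 0-1 h and their lowest share, 14.6%, at 5-6 h. The share then moved between 15.0% and 19.0% until 19-20 h, reached 23.9% at 20-21 h and 30.1% at 21-22 h (95% Wilson interval 29.996 to 30.188%, counting error only). It was still 28.5% at 23-24 h, and the last window had 19.0%. The share on XL was 10.2% at 21-22 h and 17.3% at 0-1 h. The XR share rose with the hour over the 28 libraries, with Spearman's rho of 0.846 (permutation test, two-sided, p = 1e-05, the smallest the 100000 resamples can give, adjusted p over the 5 trends tested 2.5e-05) and Pearson's r of 0.693 (permutation p = 3e-05, adjusted 5e-05). Without the first and the last window r was 0.746. In the windows before 20 h alone rho was 0.707 (permutation p = 0.00078). Over all 28 windows, without the 10 XR promoters of highest summed RPM, rho was 0.652 (permutation p = 0.00027). Windows next to each other are alike, and a permutation takes no account of it, so the p-values of all 5 trends are too small to an unknown degree. Without the 127 promoters in late runs described further on, a set chosen by its late course, the XR share ran from 14.6% to 18.9% and the trend was not past the threshold (rho = 0.117, permutation p = 0.55). With the promoters of such runs removed from autosomes and XL too, rho was 0.601 (permutation p = 0.00082).

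**Figure D3:**
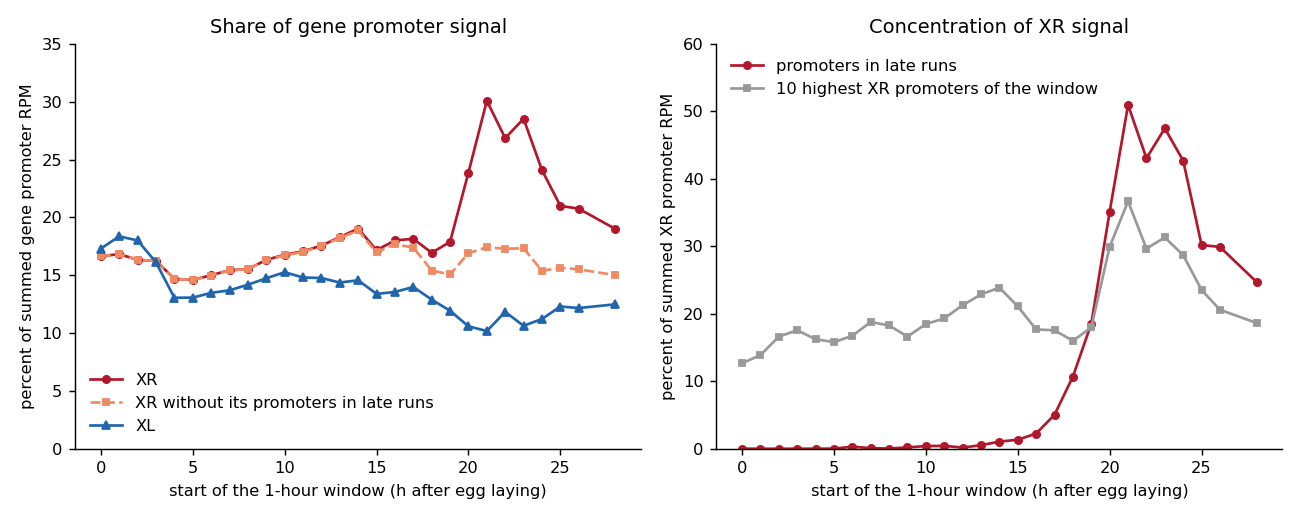
Left, percent of summed gene promoter RPM on XR, on XR without its 127 promoters in late runs, and on XL, in 28 windows with 1 library each. Right, percent of summed XR promoter RPM held by those 127 promoters and by the 10 highest XR promoters of each window. The XR share reaches 30.1% at 21-22 h, where the runs hold 51.0% of XR signal, against 0.00923% at 0-1 h.

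The level of the median XR promoter was also set against that of autosomes. The median level was 1.35 RPM on XR and 1.52 RPM on autosomes at 0-1 h, and 4.00 RPM on XR and 3.43 RPM on autosomes at 24-25 h. The log2 ratio of these medians, XR over autosomes, had a median of -0.17 over the first 5 windows and 0.13 over the last 5, and rose with the hour (rho = 0.745, permutation p = 2e-05, adjusted 3.3e-05; r = 0.632, permutation p = 0.00013, adjusted 0.00016, and 0.666 without the first and last window). The medians are a few reads in the shallow libraries, so the ratio moves in steps: it was exactly 0 in 11 of the 28 windows, and its highest value, 0.58 at 20-21 h, compares 4.13 with 2.75 RPM where 1 read is 1.38 RPM. Over promoters that reached 10 RPM, rho was 0.901. The share of promoters at 1 RPM or more gave the smoothest course. It was 53.5% on XR and 53.9% on autosomes at 0-1 h, 57.8% and 59.1% at 7-8 h, and 72.0% and 70.0% at 26-27 h. The difference, XR minus autosomes, went up from -0.65 percentage points over the first 5 windows (median) to 1.82 over the last 5, with rho of 0.900 (permutation p = 1e-05, adjusted 2.5e-05) and r of 0.890 (permutation p = 1e-05, adjusted 5e-05), and r was 0.892 without the first and last window. With every library thinned to 723775 reads rho was 0.918.

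**Figure D4:**
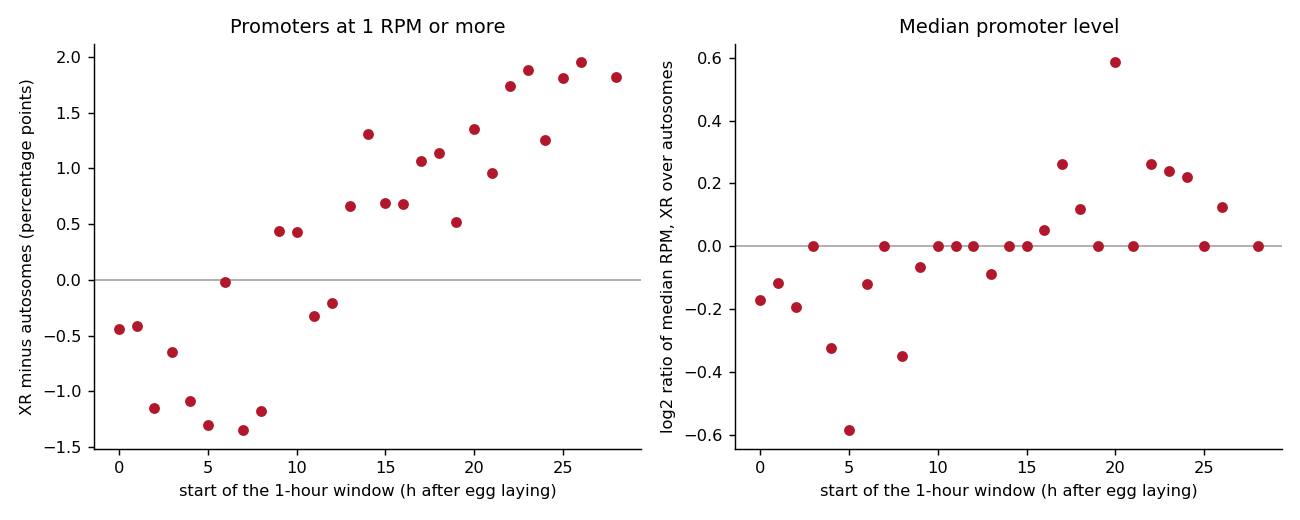
Left, percent of XR gene promoters at 1 RPM or more minus that of autosomal gene promoters, in percentage points. Right, log2 ratio of the median RPM of XR over autosomal gene promoters. Each point is 1 of 28 libraries, plotted by the start hour of its window; the difference on the left runs between -1.35 and 1.95 points, and the ratio on the right is exactly 0 in 11 windows.

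Widths of XR promoters matched those of autosomes over the whole set and parted most among late promoters. All 3472 XR promoters had a median width of 64 bp and an interquartile range of 21 to 111 bp, and autosomal promoters had the same 3 values, while XL promoters were wider, with a median of 71 bp and a range of 22 to 127 bp. Among promoters that reached 10 RPM, those peaking early had a median of 99 bp on XR, 99 bp on autosomes and 111 bp on XL. Those peaking in the middle had 90 bp on XR, 90 bp on autosomes and 99 bp on XL. Those peaking late had 40.5 bp on XR, 62 bp on autosomes and 78 bp on XL. Widths of 30 bp or less made up 43.8% of late XR promoters, against 33.1% of late autosomal and 31.8% of late XL promoters. The late regulated class was narrower still, with a median of 28 bp on XR, 32 bp on autosomes and 33 bp on XL, whereas XR housekeeping promoters had a median of 103 bp.

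Width goes with depth in these files. Over the 3472 XR promoters the Spearman correlation of width and total reads was 0.693, a description across promoters that share all libraries, and late XR promoters had fewer reads (median 894) than early ones (median 3091). Among XR promoters with at least 1000 and under 10000 reads, the 192 late ones had a median width of 68.5 bp and the 609 early ones 96 bp. In the same band of reads the medians on autosomes were 85 bp for late and 96 bp for early promoters. The gap between late and early was smaller at like depth and was still larger on XR than on autosomes, a difference that was not tested. Without the promoters in late runs described further on, and with no band of reads, the late medians were 57 bp on XR and 70 bp on autosomes.

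Weighted by signal, the change on XR was abrupt. The signal-weighted median width, at which 50% of the signal of a window lies in narrower promoters, was 131 to 145 bp on XR in the 19 windows up to 18-19 h. It was 115 bp at 19-20 h and reached its lowest value, 101 bp, at 23-24 h. On autosomes it was 127 bp at 19-20 h and 140 bp at 23-24 h. The XR value fell with the hour (rho = -0.584, permutation p = 0.0014, adjusted 0.0017; r = -0.720, permutation p = 2e-05, adjusted 5e-05, and -0.720 without the first and last window). The difference, XR minus autosomes, was -2 bp over the first 5 windows (median) and -25 bp over the last 5, and fell too (rho = -0.452, permutation p = 0.017, adjusted 0.017; r = -0.610, permutation p = 0.00058, adjusted 0.00058, and -0.578 without the first and last window). In the 20 windows before 20 h the XR width had no trend past the threshold, with rho of 0.123 (permutation p = 0.61) and r of -0.179, and the difference had rho of 0.460 (permutation p = 0.043) and r of 0.401, the opposite direction. Without the promoters in late runs on XR, autosomes and XL, the fall of the difference was not past the threshold (rho = -0.339, permutation p = 0.077). The fall of the XR width itself stayed past it without the XR runs (rho = -0.541, permutation p = 0.0032). Without the 10 XR promoters of highest summed RPM its rho was -0.874 (permutation p = 1e-05). Leaving out the 10 highest on XR and on autosomes gave the difference a rho of -0.724 (permutation p = 9e-05).

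The extremes of width among XR promoters with a mean of at least 10 RPM differed in course. The 4 widest measured 867, 817, 658 and 637 bp. The promoter of 817 bp, at 2175788 to 2176604 on the plus strand of XR_group6, was the steadiest of them, with a lowest level of 490 RPM, a median of 999 RPM and a highest of 1396 RPM. The promoter of 658 bp, at 8520520 to 8521177 on XR_group8, had 1027 RPM at 0-1 h and 34.9 RPM at 28-29 h (fitted change -5.27 ± 0.55, SE, limma adjusted p = 1.8e-11). The widest, 867 bp at 4845954 to 4846820 on XR_group8, belongs to the same gene as a narrower early regulated promoter of 122 bp, at 4849022 to 4849143, that reached 3317 RPM at 3-4 h, while the wide one reached 311 RPM at 4-5 h. The 4 narrowest measured 4, 8, 8 and 9 bp, peaked between 19 h and 29 h and reached only 37.8 to 194 RPM.

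A single gene often used promoters with unlike courses. Of the XR genes, 318 had at least 2 separate promoters that reached 10 RPM. The peak windows of the 2 strongest lay a median of 4 h apart, against 3 h on autosomes and 4 h on XL. In 142 of the 318 genes (44.7%) these 2 promoters peaked in different phases, against 39.7% on autosomes and 42.5% on XL. The stronger was the wider one in 53.8% of the XR genes. The median Pearson correlation of their courses was 0.489 on XR, 0.480 on autosomes and 0.493 on XL, a description over 28 windows.

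Promoters of different genes that lie next to each other were on the whole only weakly alike, on XR as elsewhere. Over 2117 consecutive pairs on XR the median Pearson correlation of RPM was 0.109, against 0.111 over 6750 autosomal pairs and 0.103 over 1781 XL pairs. The upper end differed: 5.72% of XR pairs had a correlation over 0.8, against 4.07% of autosomal and 3.48% of XL pairs.

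That upper end led to stretches of the arm where late regulated promoters of several genes follow one another. They were looked for after the values had been seen, as runs of consecutive promoters reaching 10 RPM, all late regulated and of at least 4 genes, and are a description without a test. XR held 19 such runs with 127 promoters of 120 genes, which is 31.4% of its 405 late regulated promoters. Autosomes held 32 runs with 171 promoters (16.7% of 1021), and XL held 6 with 31 promoters (13.6% of 228). Late regulated promoters were also more frequent on XR, at 18.8% of the promoters reaching 10 RPM, against 15.4% on autosomes and 12.2% on XL. Such runs arise more often where late promoters are more frequent, so the counts are not free of that difference. The longest run on XR spanned 15 genes, against 11 on autosomes and 6 on XL. The 127 promoters were narrow, with a median width of 25 bp and 63.0% of them at 30 bp or less. The late regulated XR promoters outside runs were narrow too, with a median of 28.5 bp and 54.3% at 30 bp or less. At 0-1 h, 95 of the 127 had no read, as had 282 of all 405 late regulated XR promoters (69.6%). Both traits are thus largely shared with the late regulated class. Of the 127, 117 were called with a fitted value that was higher in the last window than in the first, and 9 with a lower one. The sign of this fitted difference was not tested: FBgn0072044_02 had 0 RPM in both windows and a fitted change of -1.25. The late course of these promoters was the criterion, so this count describes the choice. Whether genes of a run are near-identical copies that could share reads was not tested, since no sequences were used here, and their levels are uncertain to that extent.

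**Figure D5:**
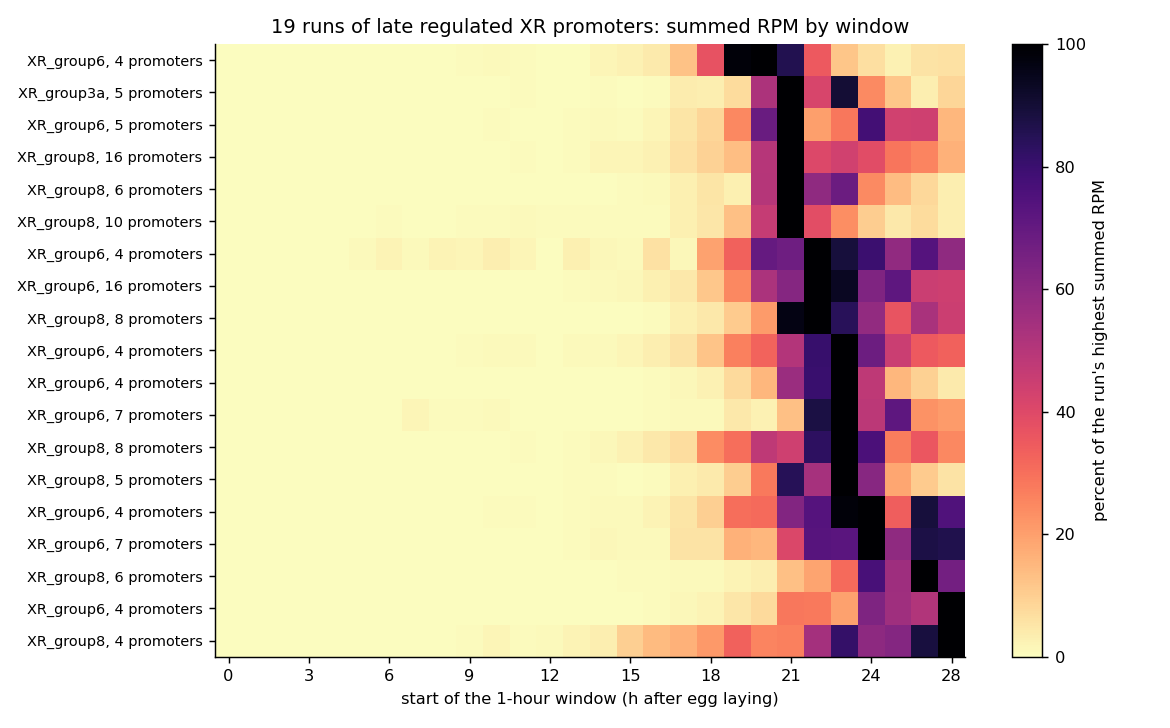
Summed RPM of each of 19 runs of late regulated XR promoters in 28 windows (1 library each), as a percent of the highest summed RPM of the run, with runs ordered from the top by the window of that maximum. The earliest run peaks at 20-21 h and the last 2 peak at 28-29 h, and every run is pale before 12 h.

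The strongest run lay on XR_group8 between 1965065 and 2017705, with 16 promoters of 15 genes in 52.6 kb and a median width of 18.5 bp. Its summed level was 1.60 RPM at 0-1 h, had a median of 595 RPM and reached 55426 RPM at 21-22 h, which was 19.3% of all XR signal in that window, with 22363 RPM at 22-23 h. FBgn0072045_01 is a member. Neighbours within it reached 17227 RPM (152 bp at 2007395), 13247 RPM (227 bp at 2003671) and 9976 RPM (41 bp at 2003429), all at 21-22 h, while others stayed low, such as 13.2 RPM for the 9 bp promoter at 2017697. The run held 7 promoters on the plus strand and 9 on the minus strand, so its members are not read in one direction. On the same scaffold a run of 5 promoters at 1945170 to 1953244 reached 15327 RPM at 23-24 h.

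On XR_group6 the longest run lay between 9520598 and 9548176, again with 16 promoters of 15 genes, in 27.6 kb and with a median width of 27 bp. Its sum was 3.03 RPM at 0-1 h, had a median of 181 RPM and reached 23954 RPM at 22-23 h. FBgn0245250_01 gave 17410 RPM of that. The peaks of the 16 promoters were spread over 20 to 27 h: promoters at 9521583 and 9536456 reached 1661 and 3294 RPM at 20-21 h, 1 at 9544538 reached 1562 RPM at 24-25 h, and the last, at 9548156, reached 52.9 RPM at 26-27 h. Membership of a run thus did not bring the same peak hour or level.

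The runs differed from one another in time as well. Their summed level peaked between 20 and 26 h in 16 of the 19, at 26-27 h in 1 and at 28-29 h in 2. Together they held 10.7% of XR signal at 18-19 h and 51.0% at 21-22 h. The value was 42.7% at 24-25 h, and 24.7% remained in the last window. Autosomal runs held 19.1% of autosomal signal at 21-22 h and 14.4% at 28-29 h, and XL runs 3.03% and 3.30% of XL signal. Before 12 h the runs held at most 0.433% of XR signal. The 6-7 h library stood out there, with 0.318% against 0.0231% at 5-6 h and 0.0915% at 7-8 h, and both FBgn0072045_01 (26.2 RPM) and FBgn0245250_01 (34.3 RPM) had 0 RPM at 5-6 h and under 4 RPM at 7-8 h. The samples carried barcodes and were pooled into a single library, and whether reads of late samples reached the 6-7 h library was not tested.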

How the data were processed

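RAMPAGE reads were aligned by the authors with STAR (version not given in the sources used here) to the FlyBase r2.9 genome, and TSCs were called on the whole series. The deposited values are RPM per TSC; the deposited score of each interval was not used. In each library 1 read is worth a fixed RPM, so whole reads could be recovered: 100% of nonzero values came out whole within 0.1. Courses were tested with limma 3.58.1 (R 4.3.3): natural spline (5 degrees of freedom) over start hours, on log2(RPM + 1), maximum of at least 1 RPM, trend option. The error is the scatter of single libraries around a smooth course. On simulated reads for all TSCs, this fit recovered 97 of 111 changes of 2 and 89 of 89 changes of 4 (log2), and called 24 unchanged TSCs among 24658 tested in all. The changed TSCs were drawn from those with a mean above 5 RPM and followed a straight line in log2. The same dispersion was set for every TSC and library. Recovery of weaker promoters or brief pulses, and false calls under uneven libraries, were not tested. As an alternative, edgeR 4.0.16 was run on the recovered reads. Other alternatives concerned pseudocount, filters, scaling (upper quartile), thinning, smoothing and repeated intervals. Trends used Spearman and Pearson permutation tests. Counting intervals and the limit of 3 reads cover counting error only. They take each recovered read as a separate molecule, which was not tested. Members and lists were chosen with earlier results of these data known. Promoters named in the text are those with the largest rises and falls (8 each), the highest means (5), the highest regulated peaks per phase (4 each) and the 4 widest and narrowest; those in runs or with a gap at 22 to 24 h were chosen after their values were seen. Gene lists by symbol matched no promoter, since the files give identifiers only. Columns of the deposited gene tables were not used.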

Additional observations from a re-analysis of the deposited data

Results flagged for a closer look

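Data outside the comparisons held XR signal in 2 places. In the 27-28 h library, left out for its depth, XR promoters had 143 of 967 gene promoter reads, which is 14.8% (95% Wilson interval 12.7 to 17.2%), and the interval lies below the XR shares of its neighbours, 20.8% at 26-27 h and 19.0% at 28-29 h. Of these 143 reads, 28 fell in the 19 late runs. A single read is worth 989 RPM there, so no level of a single promoter can be read from it.

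The 1343 XR TSCs without a gene held a median of 4.46% of XR signal over the 28 libraries, from 1.91% at 0-1 h to 8.05% at 5-6 h. They had a median of 49 reads and a median width of 20 bp. Of the 275 that reached 10 RPM, 108 (39.3%) peaked at 20 h or later, with a median peak hour of 17 h. The strongest, 137 bp wide, reached 6242 RPM at 5-6 h.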

How the results depend on the processing

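The count of time-dependent XR promoters lay between 2008 and 2944 under 9 alternatives, all within 1.5 times of 2864. The number tested was not the same in all of them. The lowest count, with a maximum of at least 10 RPM, was 93% of 2160 tested, against 92.3% on autosomes. The highest, with upper-quartile scaling, was 86% of 3423 tested, against 85.4% on autosomes. With all 29 libraries 2588 of 3416 were called, which is 75.8% on XR and on autosomes, against 83.8% of XR promoters in the main fit. The trends of the median ratio and of the share of promoters at 1 RPM or more kept direction and side of the threshold in every alternative run, with rho from 0.734 to 0.901 and from 0.785 to 0.935. Alternatives on repeated intervals, runs, the windows before 20 h and the 5 libraries under 1000000 reads were chosen after seeing the data. The rise of the XR share was not past the threshold without the XR promoters in runs (rho = 0.117), which were chosen by their late course and whose removal lowers the late share by construction, and it was past it without the runs of all arms (rho = 0.601). The fall of the width difference was not past the threshold without the runs of all arms (rho = -0.339, permutation p = 0.077). It was past it without the 10 promoters of highest summed RPM on XR and on autosomes (rho = -0.724, permutation p = 9e-05). The fall of the XR width stayed past it without the XR runs (rho = -0.541, permutation p = 0.0032). In the windows before 20 h rho was 0.123 for the XR width (permutation p = 0.61, with r of -0.179, so of no clear direction) and 0.46 for the difference from autosomes.

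Counting promoters from 2 RPM up, the median peak hour was 12, and it stayed between 8 and 10 in the other alternatives. The late share was 29.2% with at least 2 RPM, 23.7% with at least 25 RPM and 28.5% with all 29 libraries. The median width was 91 bp with at least 10 RPM, 86 bp with at least 100 reads and 82 bp for the strongest promoter of each gene. The late minus early width, -58.5 bp, was -23 bp with at least 1000 reads and -42 bp without runs. On autosomes these 3 values were -37, -9 and -29 bp. The regulated share was 34.0% with at least 25 RPM and 46.7% over 10 windows. The housekeeping share depended most on its definition, with 26.6% under 10 times the minimum, 11.1% with at least 25 RPM, 27.3% after averaging 3 windows, 0.278% with all 29 libraries and 10.5% with 1 RPM added. The correlation of neighbours was 0.167 by Spearman and 0.16 on log2(RPM + 1). Only 108 XR promoters had a read in the 27-28 h library. With all 29 libraries the others have a minimum of 0 RPM, so by the definition they cannot be housekeeping. The cause of the other shifts was not tested.

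No paired analysis was possible because each window holds 1 library. Core motifs and their alternative window were not run, since no sequences were used here. The shallowest library used makes 1 read worth 1.38 RPM, so levels near 1 RPM cannot be resolved there.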

Other observations

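A few XR promoters showed a gap of 2 windows after 22 h, noticed after the values had been seen. Of the 783 XR promoters that reached 100 RPM, 8 (1.02%) had levels at both 22-23 h and 23-24 h more than 4-fold, on the RPM + 1 scale, below those at both 21-22 h and 24-25 h, against 17 of 2330 autosomal promoters (0.730%) and 4 of 674 on XL (0.593%). The opposite pattern, 4-fold above both, occurred in 0 XR promoters. FBgn0072045_01 had 201 and 165 RPM in the gap, between 11088 RPM at 21-22 h and 6006 RPM at 24-25 h. In the same run the promoter of 19 bp at 2010271 on XR_group8 had 6.94 and 7.25 RPM in the gap, between 122 and 84.8 RPM, while its neighbour at 2007395 had 7286 and 8917 RPM in the same windows, between 17227 and 1704 RPM. The other 6 lie on XR_group6, peaked before 20 h and held 31.5 to 122 RPM at 21-22 h and 2.78 to 15.3 RPM at 22-23 h. Low single windows also occurred earlier in some of these promoters: the one at 6875579 had 10.4 RPM at 13-14 h, between 278 RPM at 12-13 h and 216 RPM at 14-15 h, and the one at 2175490 had 7.02 RPM at 13-14 h, between 101 and 118 RPM. The libraries of 22-23 h and 23-24 h hold 1440146 and 3311104 reads, and the cause of the gap was not tested.

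The XR scaffolds differed in their late share: 27.2% of the promoters reaching 10 RPM peaked at 20 h or later on XR_group8, 26.9% on XR_group6, 21.4% on XR_group3a and 15.2% on XR_group5, where only 66 promoters reached that level. The runs lay on XR_group6, XR_group8 and XR_group3a.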
